A study of Mus musculus with 10 samples.

Results

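Adrenergic receptors are the cell surface receptors for noradrenaline and adrenaline. The 8 genes described here (Adra1a, Adra1b, Adra1d, Adra2a, Adra2b, Adra2c, Adrb1 and Adrb3) were chosen by name, by matching gene identifiers without their version to these mouse symbols, out of 22255 genes in the gene table. RNA had been sequenced from hippocampal synaptoneurosomes, a preparation of pinched-off synaptic compartments, of wild-type C57Bl/6J mice. The 5 libraries labelled WT_VEH came from mice given vehicle and the 5 labelled WT_AM6545 from mice given AM6545 on a sub-chronic schedule. AM6545 blocks CB1, the main cannabinoid receptor of the brain, and is known for crossing the blood-brain barrier only weakly. The labels give no dose, age or sex, and do not say whether a library holds 1 animal or a pool, so the p-values measure the spread between these libraries. The comparison asks whether receptor RNA in this fraction differed after the drug.

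Noradrenaline reaches the hippocampus through axons of the locus coeruleus and is known for its effects on arousal, attention and memory. Alpha1 receptors couple to Gq proteins and phospholipase C. Alpha2 receptors couple to Gi/o proteins, lower cyclic AMP and sit partly on the noradrenergic axons themselves, where they restrain release. Beta receptors couple to Gs proteins and raise cyclic AMP.

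Estimated counts per library ranged from 18106112 to 25899794 in total. The markers fixed for hippocampal cells were present in every library, with summed levels of 2208 to 2679 CPM (counts scaled to library size, with TMM factors) for 6 excitatory neuron genes and 480.8 to 609.8 CPM for 5 dentate granule cell genes. RNA of glia was abundant in this fraction, at 12230 to 28202 CPM for 6 oligodendrocyte genes and 1916 to 2932 CPM for 6 astrocyte genes. Single libraries stood apart. The 5 choroid plexus genes summed to 58.2 CPM in vehicle replicate 4 against 2479 to 4876 CPM in the other vehicle libraries and 629.1 to 3889 CPM in AM6545 libraries. The 4 red blood cell genes summed to 1006 CPM in AM6545 replicate 3, against 218.4 to 660.0 CPM in vehicle and 248.4 to 349.6 CPM in the other AM6545 libraries. AM6545 replicate 3 was also highest in the oligodendrocyte and astrocyte lists, at 28202 and 2932 CPM. Vehicle replicate 3 came next in both, at 20918 and 2515 CPM.

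The gene structures matter for reading the transcript estimates below. Some splice junctions of the receptor genes are therefore shown from GENCODE M21 (mouse build GRCm38). Both sides of each junction were taken from the transcript sequence. Several are shared between transcripts of a gene, and not every junction that tells transcripts apart is shown. The 3 alpha1 genes each have an intron inside the coding sequence. In Adra1a (chromosome 14, 66635251 to 66771168, plus strand) it runs between exons that end at 66638460 and resume at 66727446. In Adra1b (chromosome 11, 43774606 to 43901210, minus strand) the exons end at 43835140 and resume at 43776459, and in Adra1d (chromosome 2, 131545850 to 131562283, minus strand) they end at 131561076 and resume at 131546540. Each line gives the last 15 bases before the intron in lower case and the first 15 after it in capitals. Adra1b-201 and Adra1b-204 also have the Adra1b junction, and in Adra1b-202 it is not annotated as coding.
Adra1a-202, shared with Adra1a-201, Adra1a-203 and Adra1a-205: tcgtgatgcccattgGGTCCTTCTTCCCGA
Adra1b-203, shared with Adra1b-202: tcgctctcccacttgGCTCCCTGTTCTCCA
Adra1d-201: tcgtcctgcctctggGTTCTCTGTTCCCTC
Of these 30 bases, Adra1a matched Adra1b at 19 and Adra1d at 19, and Adra1b matched Adra1d at 20. 

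Some Adra1a and Adrb3 transcripts leave this pattern, and these junctions are shown because the counts were divided over them. Adra1a-206 joins the first coding exon to an exon at 66770585, and Adra1a-203 leaves the second coding exon at 66727831 and ends in an exon at 66731564, so both end the reading frame differently from Adra1a-202. Adrb3-202 takes another acceptor than Adrb3-201 and Adrb3-203 (chromosome 8, minus strand, 27226896 in place of 27226793). Capitals again mark the bases after the junction.
Adra1a-206: tcgtgatgcccattgCTTAGAGAATTTGAA
Adra1a-203, its last junction: tgtaccacagcccggGGCTTTTATCCATGA
Adrb3-201 and Adrb3-203: tccaccgctcaacagGTTTGATGGCTATGA
Adrb3-202: tccaccgctcaacagTTCCCTTCTTCGGGA
By contrast, Adra2a (chromosome 19, 54044151 to 54048982), Adra2b (chromosome 2, 127363208 to 127367221) and Adra2c (chromosome 5, 35278319 to 35281763), all on the plus strand, carry their whole coding sequence in 1 exon, as does Adrb1-201 (Adrb1, chromosome 19, 56722199 to 56733113, plus strand).

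In vehicle libraries the alpha2C receptor gene was by far the most abundant member per transcript length. Levels between genes are given as counts per kilobase of transcript scaled to the same sum in every library, as in TPM, and called TPM-like here because the lengths come from GENCODE M21 and not from the authors. Adra2c stood at 18.5 ± 2.48 TPM-like units (SD, n = 5), which placed it above 65.1% of 18684 detected genes. It made up 55.4% to 62.0% of the summed level of the 8 genes in each of the 10 libraries. Adra2a, which encodes the main alpha2 autoreceptor of the brain, followed at 4.22 ± 0.653 units (SD, n = 5), above 43.3% of detected genes. Both were separated from the next gene in the order, without overlap in 10 of 10 libraries.

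The middle of the order was not resolved. Adra1d had 2.28 ± 0.946 units, Adrb1 had 1.95 ± 0.663, Adra1b had 1.88 ± 0.548 and Adra1a had 1.65 ± 0.367 (SD, n = 5 each), and the vehicle ranges of neighbours overlapped. Adrb1, the beta1 receptor gene, exceeded Adra1b in 4 of 10 libraries only, although its mean was higher in vehicle. Adrb3, which encodes the beta3 receptor best known from fat cells, lay below Adra1a, the next gene up, in each of the 10 libraries, at 0.828 ± 0.260 units (SD, n = 5). Adra2b was last at 0.0291 ± 0.0280 units (SD, n = 5).

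**Figure D1:**
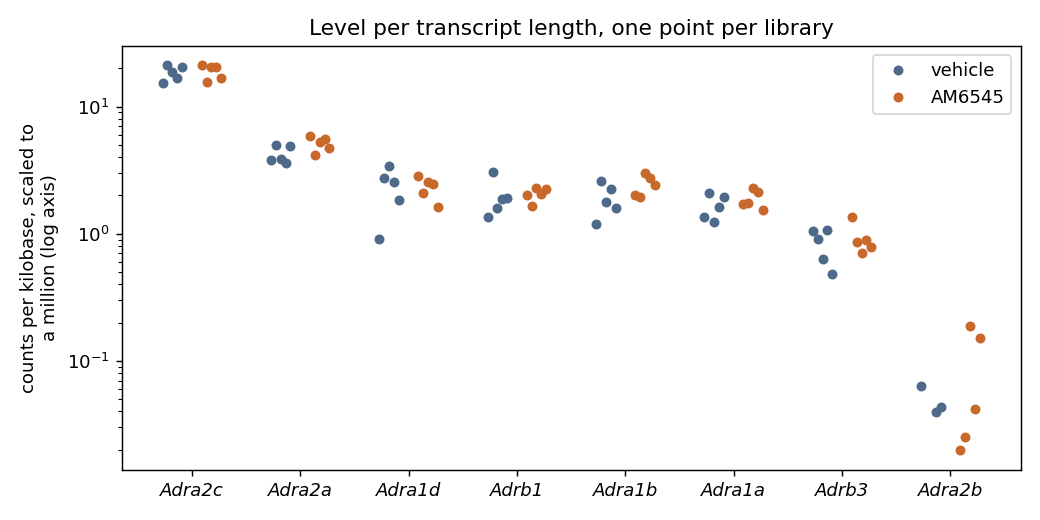
Level of each receptor gene per transcript length (vertical log axis, counts per kilobase, TPM-like units) with 1 point per library, vehicle in blue and AM6545 in orange; the 2 vehicle libraries with 0 counts of Adra2b are not drawn. Adra2c and Adra2a stand above the rest in every library, the 4 genes from Adra1d to Adra1a overlap, and Adra2b is lowest.

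Summed by class, the 3 alpha2 genes gave 72.8% ± 3.86 of the receptor level without and 71.5% ± 1.04 with the drug (SD, n = 5 each). The 3 alpha1 genes gave 18.4% ± 3.31 and 19.6% ± 1.47, and Adrb1 with Adrb3 gave 8.86% ± 1.60 and 8.87% ± 0.823 (SD, n = 5 each). These shares differed by less than 1 SD of the vehicle libraries. For scale, the CB1 receptor gene Cnr1 had 32.1 ± 4.86 units in vehicle libraries, the histamine H3 receptor gene Hrh3 had 42.0 ± 2.19, the serotonin 1A receptor gene Htr1a had 11.6 ± 3.12 and the dopamine D5 receptor gene Drd5 had 8.84 ± 2.48 (SD, n = 5 each).

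Against vehicle, none of the receptor genes passed the test after AM6545. Of the 8 members 7 passed the filter on low counts, and edgeR's quasi-likelihood test with Benjamini-Hochberg adjustment called 0 at the 0.05 level, where 0% of the 14358 genes tested did. The adjusted p was 0.9998 for each of the 7. At an unadjusted p under 0.05 there were 2, Adra2a and Adra1b, both higher in AM6545 libraries, against 1.14% of all tested genes in that direction. With the DESeq2 Wald test 1 member was under that level, beside 1.92% of all tested genes, and with limma-voom 2 were, beside 4.92%. The median log2 fold change of the 7 was 0.18, beside -0.0057 over all tested genes, and 7 of 7 were above 0, beside 48.1% of all tested genes. Adra1d, Adra2c and Adrb1 changed sign when certain libraries were left out, so that the count above 0 is not stable. In 0 of the 8 genes did the groups of libraries separate without overlap, where 0.293% of tested genes did.

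**Figure D2:**
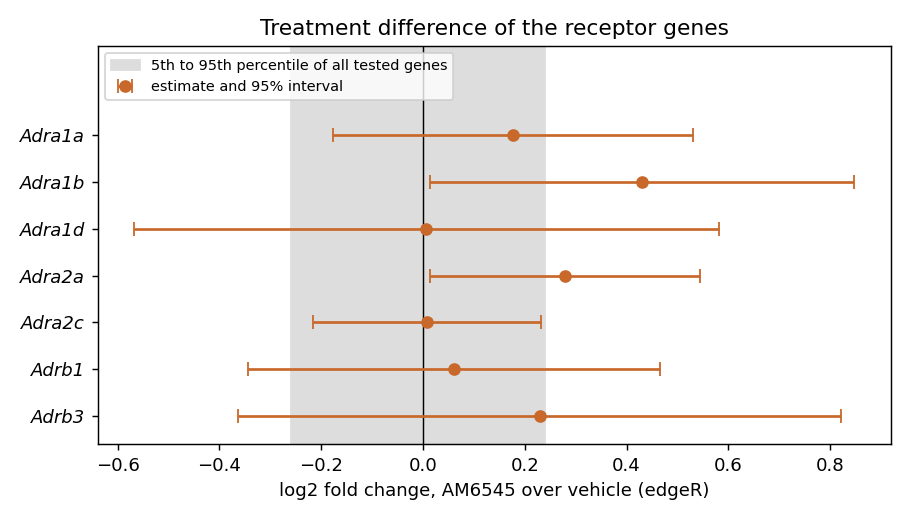
Log2 fold change of AM6545 over vehicle (horizontal axis) for the 7 tested receptor genes, as points with 95% intervals from the edgeR fit; the grey band spans the 5th to 95th percentile of all tested genes, -0.26 to 0.24. Adra1b and Adra2a lie outside the band with intervals just above 0, and the other 5 intervals include 0.

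Among the alpha1 genes, Adra1b (ENSMUSG00000050541.15), which encodes the alpha1B receptor, gave the largest estimate. Its level in the vehicle libraries, from replicate 1 to 5, was 1.89, 2.46, 2.23, 2.54 and 1.83 CPM. In the AM6545 libraries it was 2.29, 2.58, 3.58, 3.66 and 2.67 CPM. AM6545 replicates 3 and 4 were clearly above the rest, 4 of 5 AM6545 libraries exceeded every vehicle library, and AM6545 replicate 1 lay within the vehicle range. The log2 fold change was 0.43 (standard error 0.20, 95% interval 0.013 to 0.85; edgeR unadjusted p = 0.0439, adjusted p = 0.9998), on 39 to 88 counts per library. Without AM6545 replicate 4 the log2 fold change was 0.34 (edgeR unadjusted p = 0.133). Without AM6545 replicate 3, the library high in red blood cell and oligodendrocyte genes, it was 0.36 (edgeR unadjusted p = 0.110). Leaving out vehicle replicate 1, 3 or 5 gave edgeR unadjusted p = 0.0841, 0.0637 and 0.103. The DESeq2 Wald test gave unadjusted p = 0.0537, and under the other alternatives described below the unadjusted p stayed below 0.05.

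Adra1a (ENSMUSG00000045875.14), the alpha1A receptor gene, had 3.30, 3.94, 2.80, 3.52 and 3.78 CPM in vehicle replicates 1 to 5. The AM6545 libraries had 3.50, 3.72, 4.79, 4.41 and 3.21 CPM. The same AM6545 replicates 3 and 4 were the highest, and the other 3 lay within the vehicle range. On the log2 scale the fold change was 0.18, with a 95% interval of -0.18 to 0.53 (edgeR unadjusted p = 0.307).

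Adra1d (ENSMUSG00000027335.10), the alpha1D receptor gene, had the highest coefficient of variation among the vehicle libraries of the 7 tested members. The vehicle libraries had 1.02, 2.42, 3.42, 2.58 and 1.74 CPM, a coefficient of 40.5%, where counting alone would give 14.4%. The AM6545 libraries had 2.68, 2.07, 2.53, 2.37 and 1.53 CPM, all within the vehicle range. A log2 fold change of 0.0065 was estimated, with a 95% interval of -0.57 to 0.58 (edgeR unadjusted p = 0.981). In GENCODE M21 an exon of Gm14285 overlaps Adra1d on the opposite strand over 147 bases, and the use of strand in counting is not given in the sources used here.

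Among the alpha2 genes, Adra2a (ENSMUSG00000033717.7) had 8.16, 8.38, 7.42, 6.92 and 9.10 CPM in vehicle replicates 1 to 5. The AM6545 libraries had 10.6, 8.22, 10.6, 10.3 and 8.65 CPM. AM6545 replicates 1, 3 and 4 exceeded every vehicle library, and replicates 2 and 5 lay within the vehicle range. The log2 fold change was 0.28 (standard error 0.13, 95% interval 0.013 to 0.55; edgeR unadjusted p = 0.0408, adjusted p = 0.9998), on 143 to 274 counts per library. A block for the replicate number gave 0.28 (edgeR unadjusted p = 0.0754). Without vehicle replicate 4, the library poor in choroid plexus genes, it was 0.23 (edgeR unadjusted p = 0.103). Leaving out vehicle replicate 3 gave edgeR unadjusted p = 0.0851, and leaving out AM6545 replicate 1, 3 or 4 gave 0.106, 0.0862 and 0.0867. Scaling by total count gave edgeR unadjusted p = 0.0522. Under the other alternatives described below the unadjusted p stayed below 0.05.

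Adra2c (ENSMUSG00000045318.7), the most deeply counted member at 542 to 936 counts per library, gave the narrowest interval. Vehicle replicates 1 to 5 had 31.1, 33.9, 34.4, 30.4 and 35.7 CPM. AM6545 replicates 1 to 5 had 36.4, 28.0, 37.0, 36.1 and 28.8 CPM. The AM6545 libraries fell on both sides of the vehicle range, with 3 above it and 2 below it, and their coefficient of variation was 13.4% against 6.80% in vehicle. The log2 fold change was 0.0074 with a 95% interval of -0.22 to 0.23 (edgeR unadjusted p = 0.945), which in folds runs from 0.861 to 1.17.

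Adra2b (ENSMUSG00000058620.6), the alpha2B receptor gene, did not pass the filter and was not tested. It had 3, 0, 0, 2 and 2 counts in vehicle replicates 1 to 5 and 1, 1, 7, 2 and 6 counts in AM6545 replicates 1 to 5. Only AM6545 replicates 3 and 5 exceeded the 3 counts that a count of 0 allows, which correspond to 0.116 to 0.166 CPM in these libraries. No estimate of a difference is given for Adra2b at these counts.

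Of the beta genes, Adrb1 (ENSMUSG00000035283.6) had 2.33, 4.22, 2.49, 2.91 and 2.85 CPM in vehicle replicates 1 to 5 and 2.99, 2.53, 3.53, 3.08 and 3.31 CPM in AM6545 replicates 1 to 5. Vehicle replicate 2 was the highest of all, and the groups overlapped. AM6545 over vehicle gave a log2 fold change of 0.061, with a 95% interval of -0.34 to 0.47 (edgeR unadjusted p = 0.756). Without vehicle replicate 2 it was 0.22 (unadjusted p = 0.247).

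Adrb3 (ENSMUSG00000031489.16) had 1.26, 0.900, 0.726, 1.15 and 0.680 CPM in vehicle libraries and 1.55, 1.24, 0.827, 1.08 and 0.791 CPM in AM6545 libraries. AM6545 replicate 1 was the highest, and the other 4 lay within the vehicle range. The estimated log2 fold change was 0.23, with a 95% interval of -0.36 to 0.82 (edgeR unadjusted p = 0.424) on 14 to 40 counts per library. Counting alone would give a coefficient of variation of 22.0% in vehicle libraries, and 27.1% was measured. In GENCODE M21 the gene (chromosome 8, 27225776 to 27250616) overlaps exons of Gm45470 on the opposite strand over 839 bases, so its counts are uncertain.

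**Figure D3:**
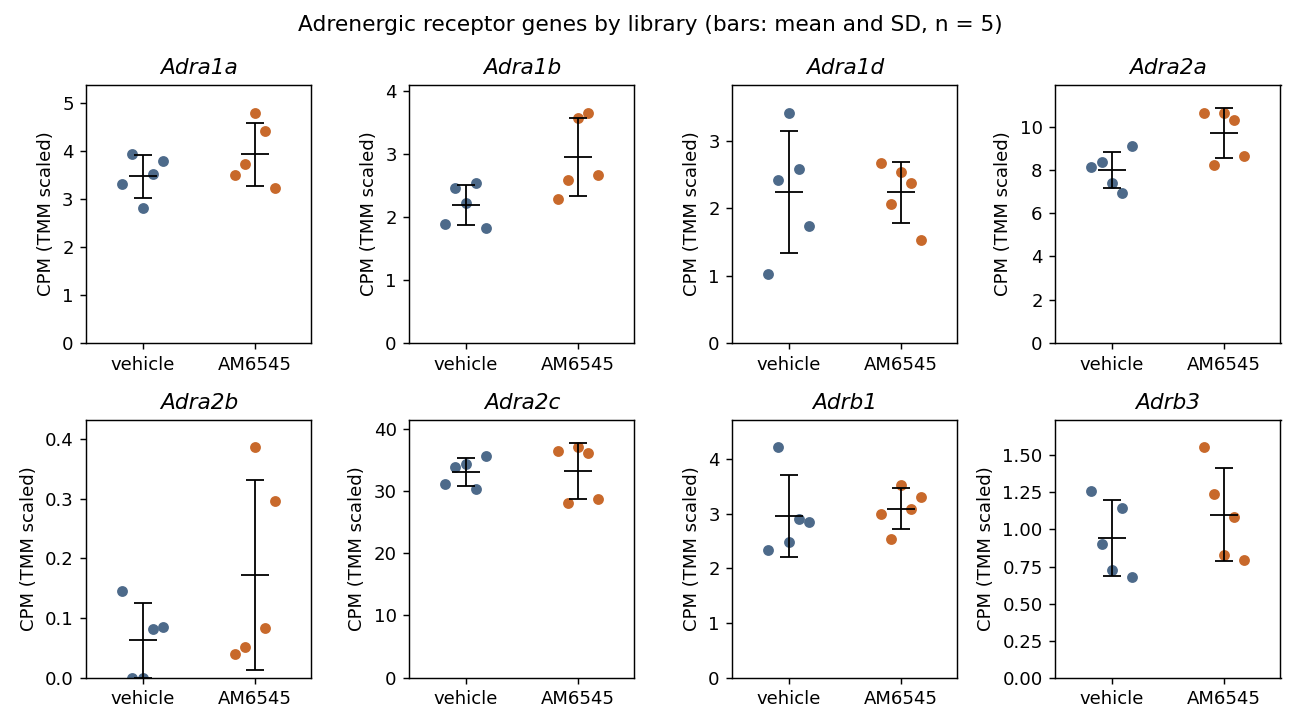
CPM scaled by TMM (vertical axes, each starting at 0) of the 8 receptor genes in the 5 vehicle and 5 AM6545 libraries, 1 point per library, ordered by replicate number from left to right within a group, with bars for the mean and SD. The groups overlap in all 8 panels; Adra2a and Adra1b have 3 and 4 AM6545 libraries above every vehicle library.

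The ratio of the 2 abundant alpha2 genes within a library separated the groups although neither level did, and no scaling between libraries enters it. This ratio was singled out after its values had been seen, so no test is given. Adra2a had 0.262, 0.247, 0.215, 0.228 and 0.255 counts per count of Adra2c in vehicle replicates 1 to 5. In AM6545 replicates 1 to 5 it had 0.293, 0.293, 0.287, 0.286 and 0.301. Every AM6545 library exceeded every vehicle library, with means of 0.292 ± 0.00586 and 0.241 ± 0.0194 (SD, n = 5 each). Of the 21 pairs of tested receptor genes, 1 separated the groups in this way. Among the 14357 tested genes other than Adra2c, with Adra2a included, the ratio to Adra2c separated the groups for 0.139%. It did so with higher values in AM6545 libraries for 0.111%. Adra2c was fixed as the denominator for these shares, and the share over all pairs of genes was not computed. AM6545 replicates 2 and 5, whose Adra2a level was not above the vehicle range, were also the libraries with the lowest Adra2c level.

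**Figure D4:**
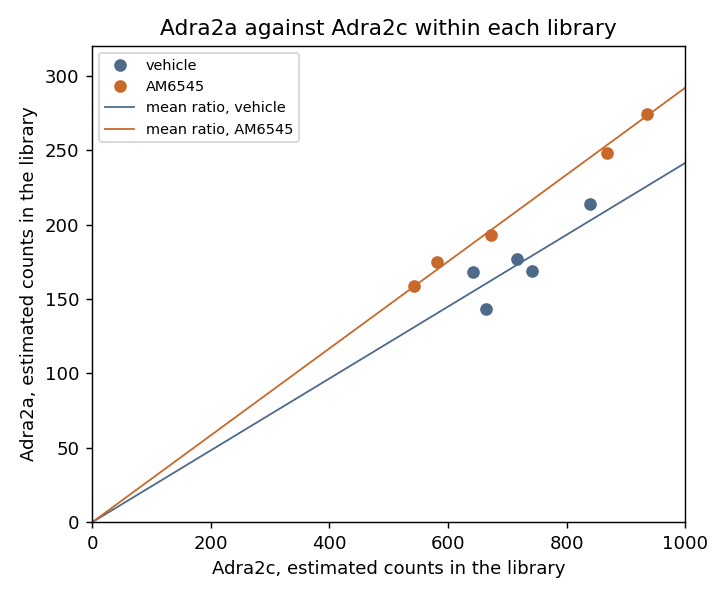
Estimated counts of Adra2a (vertical axis) against those of Adra2c (horizontal axis) in each of the 10 libraries, with lines through 0 at the mean ratio of each group, 0.241 for vehicle and 0.292 for AM6545. The 5 AM6545 points lie close to their line and the vehicle points all lie below it.

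The transcript table held 22 transcripts of the 8 genes, of which 18 had a count and 9 passed the filter. The quasi-likelihood test of edgeR called 0 of the 9 after adjustment, where 0.00314% of 31848 tested transcripts were called. At an unadjusted p under 0.05 there were 2 of 9 with edgeR and 2 with the DESeq2 Wald test. Of all tested transcripts 1.97% were under that level with edgeR and 2.74% with the DESeq2 Wald test. Both receptor transcripts were higher in AM6545 libraries, against 1.1% of tested transcripts in that direction. With edgeR the number of receptor transcripts under that level was 1 with at least 10 counts in every library and 0 with the replicate block. It was 0 to 2 when each library was left out. Over all tested transcripts the number was 627 of 22624, 596 of 31848 and 530 to 943 of 32653 to 33198 in these fits. In the main fit it was 627 of 31848. The median log2 fold change of the 9 was 0.089, beside -0.0025 over all tested transcripts.

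Adra2a counts were divided over 2 transcripts. Adra2a-202, from which an intron ahead of the coding sequence is spliced out, held 89.9% of the gene's counts, and its log2 fold change was 0.14 (edgeR unadjusted p = 0.372). Adra2a-201, which begins further upstream and keeps that intron as exon, had 5.9, 2.3, 6.0, 8.2 and 30.0 estimated counts in vehicle replicates 1 to 5 and 12.7, 32.9, 53.4, 22.8 and 19.4 in AM6545 replicates 1 to 5. All AM6545 libraries exceeded 4 of the vehicle libraries, and vehicle replicate 5 lay among them. The log2 fold change of Adra2a-201 was 1.59 (standard error 0.68; edgeR unadjusted p = 0.0409, adjusted p = 0.9999). The share of Adra2a-202 in the gene was 94.4% ± 4.91 without and 85.4% ± 9.33 with the drug (SD over 5 libraries; two-sided exact permutation p = 0.0952, adjusted over 4 genes 0.381).

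Adra1b counts were split between Adra1b-202 (58.1%) and Adra1b-203 (41.9%), which share the junction shown above and have 2 and 4 exons. Adra1b-202 had 31.7, 16.8, 26.3, 25.5 and 23.4 estimated counts in vehicle replicates 1 to 5 and 32.2, 37.6, 35.1, 68.4 and 25.6 in AM6545 replicates 1 to 5. Its log2 fold change was 0.70 (standard error 0.31; edgeR unadjusted p = 0.0489, adjusted p = 0.9999), and AM6545 replicate 4 stood highest. For Adra1b-203 the estimate was 0.070 (edgeR unadjusted p = 0.879). The annotation calls Adra1b-202 a processed transcript. Adra1b-204, coding and with the same exons, was not among the 3 Adra1b transcripts that were counted. Reads of that coding form can therefore not be told apart from those of Adra1b-202 here. The share of Adra1b-202 ranged from 32.3% to 81.4% in vehicle and from 47.5% to 77.8% in AM6545 libraries (exact permutation p = 0.468, adjusted 0.524; n = 5 each).

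Adra1a counts went mostly to Adra1a-202, at 78.6% ± 7.92 without and 75.3% ± 9.68 with the drug (SD over 5 libraries; exact permutation p = 0.524, adjusted 0.524). Adra1a-203, the transcript with the shortened second coding exon, held 11.1% of counts, and Adra1a-206, with the distant last exon, held 3.69%. Adra1a-201, which has the same coding end as Adra1a-202 and an extra last exon, was listed at 0 in all 5 vehicle libraries and in AM6545 replicates 1 and 4. It had 10.9, 30.5 and 4.6 estimated counts in AM6545 replicates 2, 3 and 5 and did not pass the filter. Adra1a-205 differs from Adra1a-201 at the first junction and shares its later ones. It went the other way, with 7.4, 4.0 and 6.5 estimated counts in vehicle replicates 2, 4 and 5 and 0 in all 5 AM6545 libraries. How reads were divided between these 2 transcripts was not tested.

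Adrb3 counts lay on Adrb3-201 (60.1%) and Adrb3-203 (36.3%), which share the coding junction. The share of Adrb3-201 was 52.6% ± 29.0 without and 71.7% ± 21.3 with the drug (SD over 5 libraries; exact permutation p = 0.254, adjusted 0.508), on the 14 to 40 counts per library given above. Adrb3-202, with the other acceptor, held 2.69% of counts. Adra1d, Adra2b, Adra2c and Adrb1 each had all their counts on 1 transcript.

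**Figure D5:**
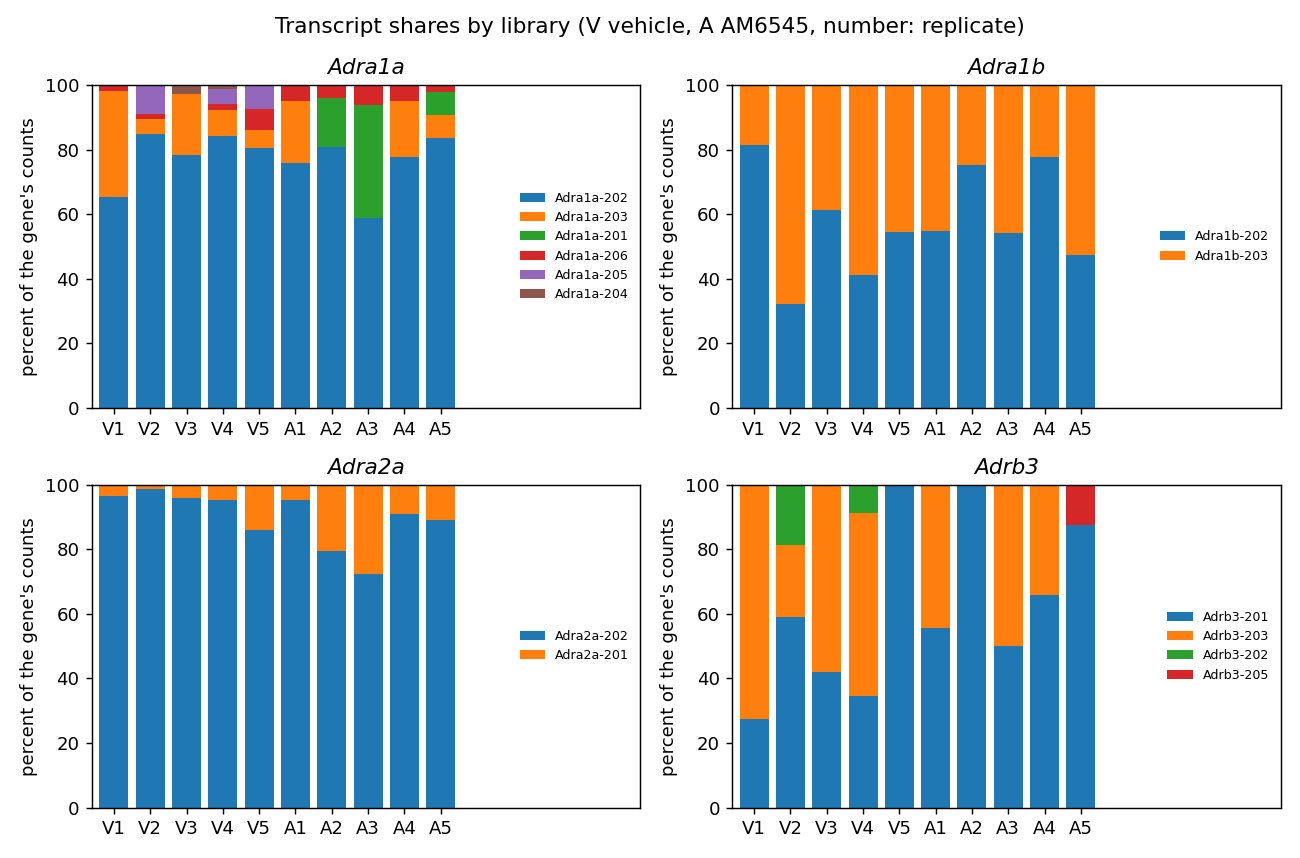
Share of a gene's estimated counts held by each transcript (stacked bars, percent) in vehicle (V) and AM6545 (A) libraries, numbered by replicate, for the 4 receptor genes with 2 or more counted transcripts. Adra2a-202 and Adra1a-202 hold most counts in every library, while the Adra1b and Adrb3 shares differ widely between libraries of the same group.

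The genes that make, store and clear noradrenaline, those that carry the receptors' signal and the receptors for other monoamines were read from fixed lists. In each list edgeR gave 0 genes with an adjusted p under 0.05 and 0 with an unadjusted p under 0.05, where 1.88% of all tested genes were under the unadjusted level. Of 6 genes for synthesis and storage 4 were tested, with a median log2 fold change of -0.056. Th, the rate-limiting enzyme of catecholamine synthesis, averaged 1.47 ± 0.504 CPM without and 1.25 ± 0.248 CPM with the drug (SD over 5 libraries; edgeR unadjusted p = 0.408). Slc18a2, the vesicular monoamine transporter gene, averaged 8.01 ± 0.768 and 8.58 ± 0.724 CPM (SD over 5 libraries; edgeR unadjusted p = 0.430). Dbh, the enzyme that makes noradrenaline from dopamine, was counted at 9 to 27 per library. Slc6a2, the noradrenaline transporter gene, had 0 or 1 count in each library and was not tested. Of 6 genes for uptake and breakdown 5 were tested, with a median of 0.020. Slc22a3, a low-affinity monoamine transporter gene, had 3 to 18 counts per library (edgeR unadjusted p = 0.263).

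Downstream of the receptors, 13 genes of the Gq arm had a median log2 fold change of 0.046, 9 of the Gi/o arm 0.024 and 14 of the Gs arm 0.015. Their smallest unadjusted p values were 0.0911 for Gna14, a Gq family alpha subunit (log2 fold change 0.45), 0.381 for Gnai1, an inhibitory alpha subunit (0.091), and 0.103 for Gnas, the stimulatory alpha subunit (0.17), all from the edgeR fit. In the other direction they were 0.281 for Gna11, another Gq family alpha subunit, 0.483 for Kcnj3, a potassium channel opened by Gi/o proteins, and 0.315 for Adcy9, an adenylyl cyclase (edgeR). Of 15 receptor kinase, arrestin and scaffold genes 11 were above 0, with a median of 0.097. Grk3, a kinase that phosphorylates activated receptors, averaged 27.3 ± 2.84 CPM without and 31.8 ± 3.31 CPM with the drug (SD over 5 libraries; log2 fold change 0.22, edgeR unadjusted p = 0.0501). Rgs14, a regulator of G protein signalling, had the smallest unadjusted p below 0 (log2 fold change -0.082, edgeR unadjusted p = 0.550). Among 9 tested receptors for the other monoamines the median was 0.033, and Htr2c, a serotonin receptor gene, had the smallest unadjusted p (log2 fold change -0.30, edgeR unadjusted p = 0.0788), followed above 0 by the histamine H1 receptor gene Hrh1 (0.24, edgeR unadjusted p = 0.143). For Cnr1, the gene of the drug's own receptor, the estimate was 0.040 on the log2 scale (edgeR unadjusted p = 0.675).

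Markers of other cells and tissue were read beside the receptor values. The 8 thalamus markers summed to 133.4 to 151.2 CPM in vehicle and 133.2 to 161.0 CPM in AM6545 libraries, and the 7 striatum markers to 206.5 to 317.4 and 182.3 to 258.1 CPM. The 4 oligodendrocyte precursor markers summed to 55.1 to 76.8 and 61.1 to 86.7 CPM. AM6545 replicates 3 and 4, the libraries highest in Adra1b and Adra1a, were at the top with 86.7 and 77.9 CPM. Vehicle replicates 2 and 3 came next at 76.8 and 75.1 CPM. They had 3.94 and 2.80 CPM of Adra1a, the latter the lowest of the 10 libraries, and 2.46 and 2.23 CPM of Adra1b. The 6 oligodendrocyte markers were highest in AM6545 replicate 3 at 28202 CPM. The 5 CA1 pyramidal cell markers also had AM6545 replicates 3 and 4 at the top, with 615.0 and 621.7 CPM. Vehicle replicate 3 came next there at 606.7 CPM. None of the markers in these lists passed edgeR's test after adjustment, and their part in the receptor values was not tested. In bulk RNA of this kind, fewer compartments of a type and less RNA in each cannot be told apart.

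For the 5 receptor genes with a mean of at least 50 counts per library, the genes of most similar pattern over the 10 libraries were listed by Pearson's r of log2 CPM, as a description among 14357 genes that share the same libraries. Among the genes most like Adra2a were Nle1 (r = 0.907) and Lcp1 (0.888). Adra2c was most like 2510039O18Rik (r = 0.967), Man2b1 (0.937) and Dnmbp (0.927), and Adra1a most like Cntn4 (0.930), Pianp (0.907) and Tmem132d (0.899). Adra1b was most like Mkrn1 (r = 0.922), Haus5 (0.903) and Matn4 (0.879), and Adrb1 most like Sorcs1 (0.961), Rbm15b (0.954) and Pm20d2 (0.950). None of these lists names another adrenergic receptor gene.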

How the data were processed

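Per the labels' protocols, a SMARTer kit for low RNA amounts was used on total RNA of the synaptoneurosomes. The authors deposited estimated counts per gene and per transcript for 10 libraries, and Salmon 1.5.2 and mm10 are named in the submitters' processing notes. The annotation release and strand setting are not given in the sources used here. Group and replicate number came from the titles, and 22155 of 22255 gene identifiers matched a symbol.

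Counts were rounded and fitted over all genes with edgeR 4.0.16 in R 4.3.3 (TMM, filterByExpr with minimum count 10 and minimum total 15, robust quasi-likelihood, group alone, two-sided, Benjamini-Hochberg threshold 0.05), and likewise for transcripts. Standard errors were taken from the fold change and its F statistic. Levels per length used GENCODE M21 lengths, which covered 99.3% of transcript counts. That release differs from the one counted in its identifier versions. Transcript shares were compared by exact permutation of the library labels, whose smallest possible p is 0.00794, with scipy 1.17.1. Intervals and the floor of 3 counts cover counting error or library spread only, since the reads were amplified and carry no molecular identifiers.

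The alternatives were scaling by total count or by DESeq2 size factors, limma-voom (limma 3.58.1) with quality weights, the Wald test of DESeq2 1.42.0, 2 other filters, the replicate number as a block, other lengths and leaving out each library in turn. Scripts were tested on simulated data. The 8 genes and the lists were chosen with earlier results of these data known. All 8 are named, with Cnr1, the gene of smallest p per pathway list and direction, transcripts holding at least 5% of a gene's counts, and the 3 genes of most similar pattern. A gene that each of the pathway and pattern rules would name is not reported here. Others named, Hrh3, Htr1a, Drd5, Th, Dbh, Slc6a2, Adra1a-205, Adra1a-206 and Adrb3-202, were chosen after their values were seen. The remaining receptors for other monoamines were added for their levels.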

Additional observations from a re-analysis of the deposited data

Results flagged for a closer look

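A single library stood away from the rest of its group in 1 of 30 checks of extreme values, beside 1.5 that chance would give. It was vehicle replicate 5, where Adra2a-202 held 86.0% of Adra2a counts, while its share was 95.2% to 98.7% for vehicle replicates 1 to 4.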

How the results depend on the processing

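Under all 17 alternatives, 0 receptor genes had an adjusted p under 0.05, and 0 receptor transcripts under all 13. Over all genes the count of calls was 1 with limma-voom and 0 to 1 when each library was left out. Over all transcripts it was 11 with the DESeq2 Wald test, 0 with at least 10 counts in every library, 0 with the replicate block and 0 to 4 when each library was left out. Of 119 log2 fold changes of receptor genes under alternatives, 104 kept their direction. The 15 others belonged to Adra1d, Adra2c and Adrb1. Adra1d was -0.00010 with DESeq2 size factors, -0.00082 with the DESeq2 Wald test and -0.17 to 0.20 when each library was left out. Adra2c was -0.0074 with limma-voom, -0.000048 with the replicate block and -0.034 to 0.063 when each library was left out, and Adrb1 was -0.013 to 0.22. The difference in the share of Adra1a-202 was -6.60 to 0.862 percentage points. The cause was not tested. Adra2a stayed between 0.23 and 0.33 and Adra1b between 0.34 and 0.50. Same-numbered libraries of the 2 groups had correlations of deviations of -0.186 to 0.393, and 3 of the 5 numbers correlated best with their own number. The labels do not say whether numbers pair the libraries. The main fit called 0 receptor genes, so the block had no call to remove, and it added 0. At an unadjusted p under 0.05 (edgeR) there were 1 receptor gene and 0 receptor transcripts with the block, against 2 and 2 without it. With the exon union as length, vehicle levels in TPM-like units became 29.9 for Adra2c, 5.14 for Adra2a, 3.68 for Adra1d, 2.75 for Adrb1 and 1.24 for Adra1a, and with the longest transcript 23.3 for Adra2c. The longest transcript also exchanged the places of Adra1a and Adra1b in the order. A share over coding transcripts only could not be computed for Adra1b.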
